A study of Mus musculus with 18 samples.

Results

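The genes described here make cholesterol, sense it, move it through the cell or export it. They were chosen by name, from a list of 32 symbols matched exactly to the array's gene annotation. The list was chosen with earlier results of these data known. Of these names, 29 had at least 1 probe set (a group of short probes for 1 transcript). Acat2 (cytosolic thiolase, the entry to the pathway), Nr1h2 (liver X receptor beta) and Sc4mol had none, and Sc4mol is an older name of Msmo1, which is on the list. Tm7sf2, Sc5d, Insig1, Srebf2 and Abcg1 were constant in the deposited table, with a range under 0.01 over all 18 arrays, and give no information. The remaining 24 genes varied, out of 6842 varying genes among the 18193 genes with a probe set of 1 symbol. They are 7 enzymes from acetyl-CoA to the isoprenoid diphosphates, 9 enzymes from squalene onwards, the regulators Insig2 and Scap, the carriers Stard4, Npc1 and Npc2, and 3 genes of the efflux side, Abca1, Nr1h3 and Mylip. The list does not hold every gene of the pathway.

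All samples came from the back skin of albino hairless mice (strain HR-1, male, labelled as 6 weeks old) on a commercial diet. NT skin (6 arrays) was not stripped. TS skin (6 arrays) had been stripped with cellophane tape 3 times per week over 4 weeks, and stripping stopped once transepidermal water loss had reached 70 to 100 g/m2/h. TS_WB skin (6 arrays, named WB in the sample titles) came from stripped mice that were also dosed orally with an extract of winged bean, 200 mg/kg per day on 5 occasions per week over 5 weeks, starting 1 week before stripping. The extract was given in 0.3% carboxymethylcellulose, and whether NT and TS mice received that vehicle is not stated. Stripping was done on the left side of the back, and the labels name each sample as dorsal skin with or without stripping. Total RNA was measured on Affymetrix mouse genome arrays. TS against NT asks what repeated barrier disruption changed, and TS_WB against TS asks what the extract changed in stripped skin.

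Cholesterol, ceramides and free fatty acids are the main lipids of the barrier between the cells of the stratum corneum, and keratinocytes make much of their cholesterol themselves. Synthesis runs from acetyl-CoA through mevalonate to farnesyl diphosphate, then through squalene and lanosterol to cholesterol. Its genes are induced together by SREBP-2, a membrane-bound transcription factor. Scap carries SREBP to the Golgi for cleavage when sterols are low, and Insig proteins hold the complex back when sterols are high. Liver X receptors respond to oxysterols and induce the opposite arm, the exporters Abca1 and Abcg1 and Mylip, which marks lipoprotein receptors for degradation.

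The promoters were searched because SREBP-2 is known to act through its own element together with NF-Y, which binds CCAAT, and Sp1, which binds GC boxes. RefSeq promoters (GRCm38.p6) were held for 25 of the 32 names, in 32 entries, and the 250 bases before each start were read on both strands. No entry was held for Fdps, Fdft1, Sqle and Stard4, all called higher in TS than NT, nor for Npc1, Abcg1 and Sc4mol. The synthesis entries include Acat2, Tm7sf2 and Sc5d, which gave no values here. The motif shares below therefore do not describe the genes that rose. TCACNCCAC, a common form of the sterol regulatory element, was found in 1 of the 32 entries, that of Hmgcs1, and in 1.05% of all 32851 promoters. CCAAT was found in 15 of the 19 entries of synthesis genes, in 1 of the 5 of efflux genes and in 33.8% of all promoters. GGGCGG was found in 15 of 19, in 2 of 5 and in 32.7%. A pair of AGGTCA motifs 4 bases apart, a strict form of the liver X receptor element, was in 0 of the 32 entries and in 5 promoters of the whole table. No match overlapped a match of another motif. The last 150 bases before the start are shown for 4 synthesis genes, of which Idi1, Hsd17b7 and Ebp were higher in TS than in NT, and for Abca1 as a gene of the opposite arm without CCAAT. Capitals mark TCACNCCAC and CCAAT, which reads ATTGG where it lies on the other strand. The stretches are chr13:119690201-119690350 (plus strand) for Hmgcs1, chr13:8885456-8885605 (plus) for Idi1, chr1:169969206-169969355 (minus) for Hsd17b7, chrX:8193513-8193662 (minus) for Ebp and chr4:53159896-53160045 (minus) for Abca1.
Hmgcs1: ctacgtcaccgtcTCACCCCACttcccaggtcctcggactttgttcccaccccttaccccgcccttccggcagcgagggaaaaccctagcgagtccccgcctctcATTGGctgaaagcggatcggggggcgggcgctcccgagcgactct
Idi1: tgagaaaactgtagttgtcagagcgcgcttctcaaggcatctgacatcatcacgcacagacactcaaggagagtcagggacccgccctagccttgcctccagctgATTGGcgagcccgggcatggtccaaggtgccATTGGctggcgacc
Hsd17b7: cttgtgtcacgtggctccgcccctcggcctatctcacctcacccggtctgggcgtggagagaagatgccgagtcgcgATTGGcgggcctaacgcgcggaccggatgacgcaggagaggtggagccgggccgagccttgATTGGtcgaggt
Ebp: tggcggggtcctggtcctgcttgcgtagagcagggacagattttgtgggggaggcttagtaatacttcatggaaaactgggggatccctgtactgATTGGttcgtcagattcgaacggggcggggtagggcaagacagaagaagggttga
Abca1: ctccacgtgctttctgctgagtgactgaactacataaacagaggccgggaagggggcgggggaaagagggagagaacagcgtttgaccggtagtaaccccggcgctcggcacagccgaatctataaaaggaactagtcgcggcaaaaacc
The sterol element of Hmgcs1 begins 137 bases before the start, and its nearest CCAAT 45 bases before. Idi1 holds CCAAT 45 and 14 bases before the start, Hsd17b7 holds it 165, 73 and 12 bases before and Ebp 170 and 55 bases before. These matches describe letters in these windows and are not measured binding.

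Values are on a log2 scale, so a difference of 1 is a 2-fold change, and each gene is followed through its brightest varying probe set. Brightest means the highest mean over all 18 arrays, TS_WB included. A gene was called where limma's test over all probe sets gave an adjusted p under 0.05 and the groups differed by at least 0.01. Levels of different genes are not compared, since each probe set has its own scale. The TS_WB arrays stood apart from the others in their control probe sets, whose 3′ to 5′ difference serves as a measure of RNA quality. The difference between the 3′ and 5′ actin control probe sets was -0.51 ± 0.10 (SD, n = 6) in NT, 0.16 ± 0.07 in TS and 5.69 ± 0.25 in TS_WB. The corresponding Gapdh difference was -0.59, -0.44 and 3.70. Every TS_WB array differed from the TS arrays in this way. In the TS_WB comparisons this difference in the arrays and the extract therefore cannot be told apart. For actin the 3 groups did not overlap (exact permutation p = 0.00216 for each pair, two-sided, adjusted p = 0.0026 over the 6 comparisons of both controls). One NT array, replicate 5, had hepatocyte markers (9 varying genes) at a mean of 14.77. The other NT arrays lay between 7.14 and 7.29, TS arrays at or below 7.15 and TS_WB arrays at or below 6.68. Results are therefore given without replicate 5 where they change. Keratinocyte markers, all 7 of 7 on the array varying, marked the tissue in every group, with list means of 11.88 to 12.36 on NT arrays, 12.65 to 13.07 on TS arrays and 11.89 to 12.33 on TS_WB arrays.

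In tape-stripped skin, enzymes from both arms of the synthesis pathway were higher than in unstripped skin. The genes with the smallest p-values were squalene epoxidase (Sqle), the carrier Stard4, the SREBP escort Scap and the sterol isomerase Ebp. By size, Scap (0.32) and Ebp (0.33) rose less than Hsd17b7 (0.95), Fdps and Fdft1 (0.67 each). Of the 24 varying genes, 10 were higher in TS, 1 was lower and 13 did not pass. That is 41.7% higher and 4.17% lower, beside 19.3% and 21.1% of all varying genes. Since the list was chosen with earlier results of these data known, these shares are a description and not a test. The median difference was 0.25 over the 24 genes and 0.00 over all 6842. In bulk skin, fewer cells of a type and less RNA per cell cannot be told apart. Among the 19 synthesis and transport genes 9 were higher, 0 lower and 10 not called, with a median of 0.31. Among the 3 efflux genes 0 were higher and 1 was lower, with a median of 0.05. The TS and NT arrays did not overlap for 6 of the 24 genes, all higher in TS (Pmvk, Fdps, Sqle, Ebp, Scap and Stard4). That share lay near the 26.1% of all varying genes that did not overlap in either direction. The share over all varying genes in the higher direction alone was not counted.

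**Figure D1:**
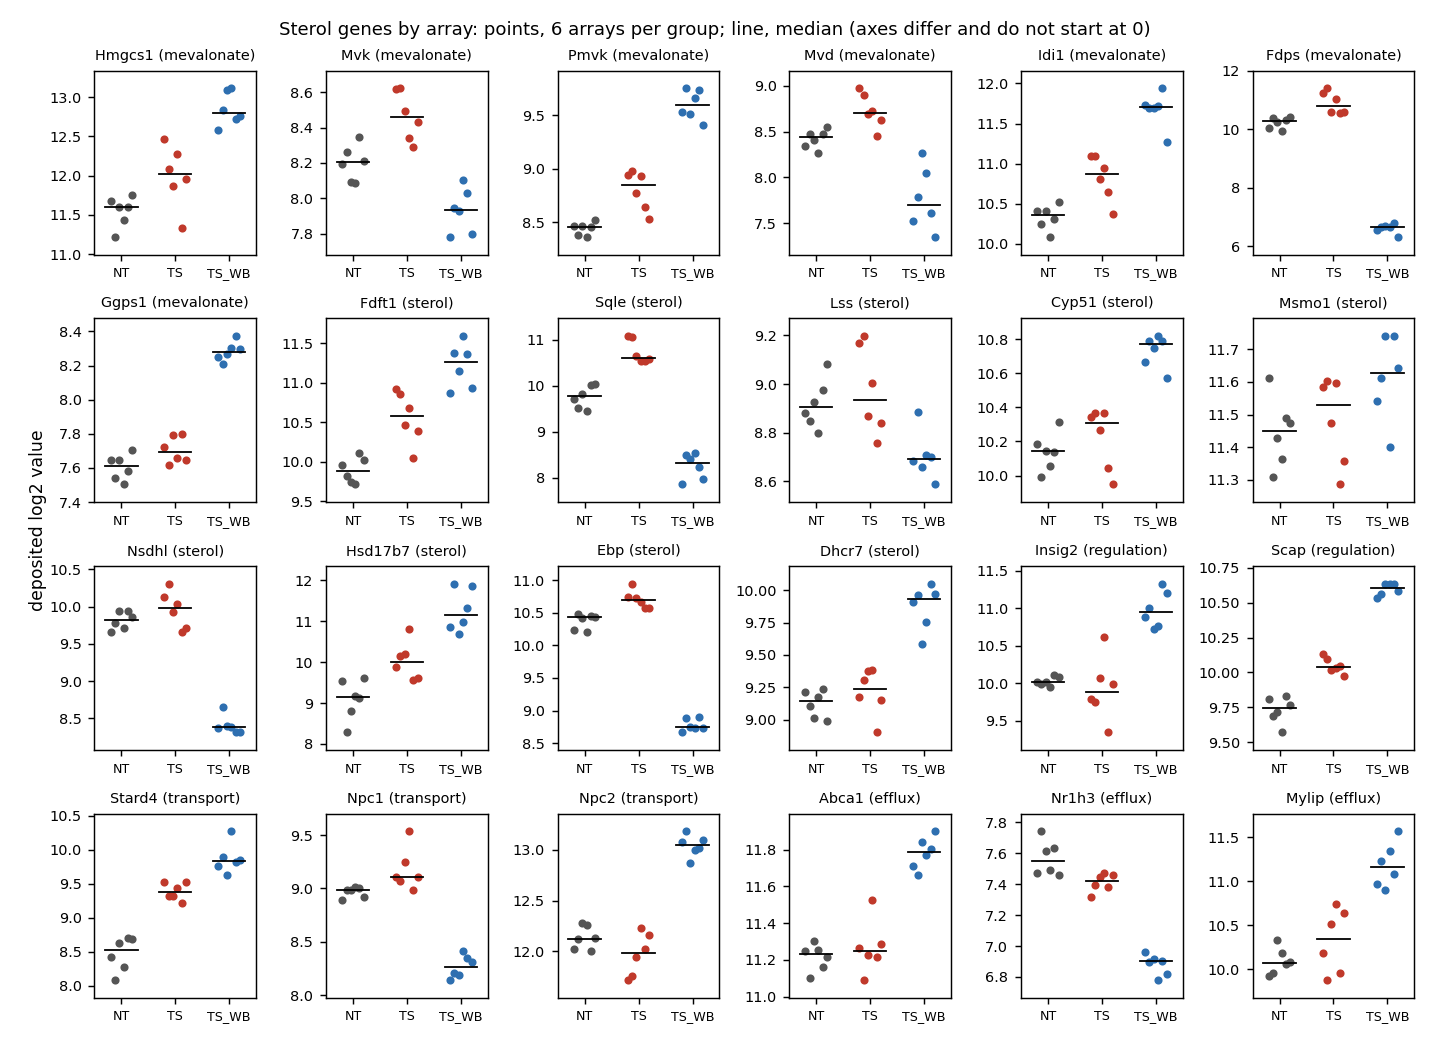
Deposited log2 value of each of the 24 varying genes on every array (points, 6 per group, in replicate order) with the group median (line); each panel has its own axis. Sqle, Stard4, Scap, Ebp, Fdps and Pmvk show TS arrays above all NT arrays, and TS_WB arrays lie far below both for Fdps (medians 10.30, 10.81 and 6.68).

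The first enzymes make mevalonate and turn it into the activated 5-carbon unit. Hmgcs1, cytosolic HMG-CoA synthase, ranged from 11.22 to 11.76 (median 11.60) in NT and from 11.33 to 12.46 (median 12.02) in TS. Its groups overlapped through TS replicate 5, the lowest TS array. The difference was 0.45 (SE 0.16, adjusted p = 0.0759) and did not pass. Without TS replicate 5 it was 0.58 and passed (adjusted p = 0.00648). With any other single array left out it did not pass (adjusted p up to 0.166, without NT replicate 2). All 5 of its probe sets were between 0.16 and 0.48 higher in TS, none called.

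Mvk, mevalonate kinase, had medians of 8.20 in NT and 8.46 in TS and was 0.27 higher (SE 0.07, adjusted p = 0.016). Its second probe set differed by 0.03 and was not called. Pmvk, the next kinase of the chain, ranged from 8.36 to 8.53 in NT and from 8.53 to 8.98 in TS, the groups just touching without overlap. It was 0.35 higher (adjusted p = 0.00536), a 1.28-fold change. Mvd, the decarboxylase that ends this stretch, had medians of 8.44 and 8.71, and its difference of 0.31 did not pass (adjusted p = 0.161).

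Idi1, isopentenyl diphosphate isomerase, ranged from 10.08 to 10.52 (median 10.36) in NT and from 10.36 to 11.10 (median 10.87) in TS. Only TS replicate 6 fell within the NT range. It was 0.50 higher (SE 0.13, adjusted p = 0.0148). Fdps, farnesyl diphosphate synthase, stands where the sterol and isoprenoid branches part. It ranged from 9.93 to 10.41 (median 10.30) in NT and from 10.54 to 11.40 (median 10.81) in TS, with all TS arrays above all NT arrays. Its rise of 0.67 (SE 0.15, adjusted p = 0.00583) was 1.59-fold. Ggps1, which makes geranylgeranyl diphosphate for the non-sterol branch, had medians of 7.61 and 7.69 and a difference of 0.10 that did not pass (adjusted p = 0.114).

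In the sterol-specific arm 4 of the 9 enzymes were called higher. Fdft1, squalene synthase, had medians of 9.89 in NT and 10.58 in TS and was 0.67 higher (SE 0.15, adjusted p = 0.0063). Its other probe set was 0.31 higher and did not pass (adjusted p = 0.0613). Sqle, squalene epoxidase, a rate-limiting step, ranged from 9.44 to 10.03 (median 9.77) in NT and from 10.54 to 11.08 (median 10.61) in TS. Every TS array lay above every NT array, and TS replicates 1 and 2 were the highest. The difference of 0.98 (SE 0.15, adjusted p = 0.000358) was 1.98-fold and the largest among the 24 genes in this comparison.

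The 4 steps around lanosterol that follow had smaller fitted differences. Lss, lanosterol synthase, differed by 0.05 (95% interval -0.11 to 0.22). Cyp51, which removes a methyl group from lanosterol, differed by 0.08 (-0.08 to 0.25). Msmo1, the sterol methyl oxidase of the next demethylation, differed by 0.04 (-0.11 to 0.19). Nsdhl, which works in the same demethylating complex, differed by 0.14 (-0.07 to 0.36). None of these passed. A second Cyp51 probe set differed by 0.25 (-0.09 to 0.59) and did not pass either. A second Lss probe set differed by 0.17 (0.03 to 0.31), an interval above 0, and did not pass (adjusted p = 0.0933).

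Hsd17b7, the ketosteroid reductase that completes that complex, ranged from 8.29 to 9.62 (median 9.15) in NT and from 9.57 to 10.81 (median 10.01) in TS. The brightest probe set was 0.95 higher (SE 0.28, adjusted p = 0.0321), with groups that overlapped. Its call was lost on leaving out any one of NT replicates 2, 3, 4 and 5 (0.0524 without replicate 5) or TS replicates 2, 3 and 4, with an adjusted p of at most 0.0763, but its other probe sets were 0.65 and 0.83 higher with no overlap between groups (adjusted p = 0.00124 and 0.00114). Ebp, the sterol isomerase, ranged from 10.20 to 10.48 (median 10.43) in NT and from 10.57 to 10.95 (median 10.70) in TS. The groups did not overlap, and the rise of 0.33 (SE 0.07, adjusted p = 0.00299) was 1.26-fold. Dhcr7, the last reductase, had medians of 9.14 and 9.24 and did not pass (difference 0.09, 95% interval -0.10 to 0.28).

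Among regulators and carriers, Scap and Stard4 had the smallest p-values of the 24 genes. Scap ranged from 9.57 to 9.83 (median 9.74) in NT and from 9.97 to 10.13 (median 10.04) in TS, without overlap. It was 0.32 higher (SE 0.04, adjusted p = 6.93e-05), 1.25-fold. Stard4, a soluble carrier of cholesterol between membranes and itself an SREBP-2 target, ranged from 8.09 to 8.70 (median 8.52) in NT and from 9.21 to 9.53 (median 9.38) in TS. All TS arrays lay above all NT arrays, the rise was 0.93 (SE 0.12, adjusted p = 7.53e-05) or 1.90-fold, and a second probe set was 1.14 higher. Insig2, the retention protein with varying values in the table, had medians of 10.02 and 9.89. Its difference of -0.10 (95% interval -0.45 to 0.25) did not pass, and TS arrays spread from 9.35 to 10.62 against 9.95 to 10.11 in NT.

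Npc1 and Npc2 move cholesterol out of lysosomes. Npc1 had medians of 8.98 and 9.11 and its difference of 0.21 did not pass (adjusted p = 0.0741). It passed without TS replicate 5 (0.25, adjusted p = 0.0357), but not with any other single array left out. Npc2 had medians of 12.13 and 11.99. Its brightest probe set differed by -0.16 and did not pass (adjusted p = 0.278), whereas the other 2 were lower in TS, each by 0.27 (adjusted p = 0.014 and 0.0276). The first of these 2 was the brighter in NT and TS, with means of 12.30 and 12.03 against 12.14 and 11.97. The probe set followed here is the brightest over all 18 arrays only through the TS_WB arrays.

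On the efflux side no gene was called higher in TS. Abca1, the transporter that loads cholesterol onto apolipoproteins, ranged from 11.10 to 11.30 (median 11.23) in NT and from 11.09 to 11.52 (median 11.25) in TS. The difference was 0.05 (95% interval -0.07 to 0.18, adjusted p = 0.759). Mylip ranged from 9.92 to 10.33 (median 10.07) in NT and from 9.88 to 10.75 (median 10.35) in TS, and its difference of 0.23 did not pass (adjusted p = 0.446). TS arrays of Mylip lay on both sides of the NT range. Nr1h3, liver X receptor alpha, ranged from 7.46 to 7.74 (median 7.55) in NT and from 7.32 to 7.47 (median 7.42) in TS. It was 0.16 lower (SE 0.05, adjusted p = 0.0368), the groups overlapped, and the call was lost without any of NT replicates 2, 3 and 5 or TS replicates 1, 2 and 5 (adjusted p from 0.0691 to 0.0849).

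**Figure D2:**
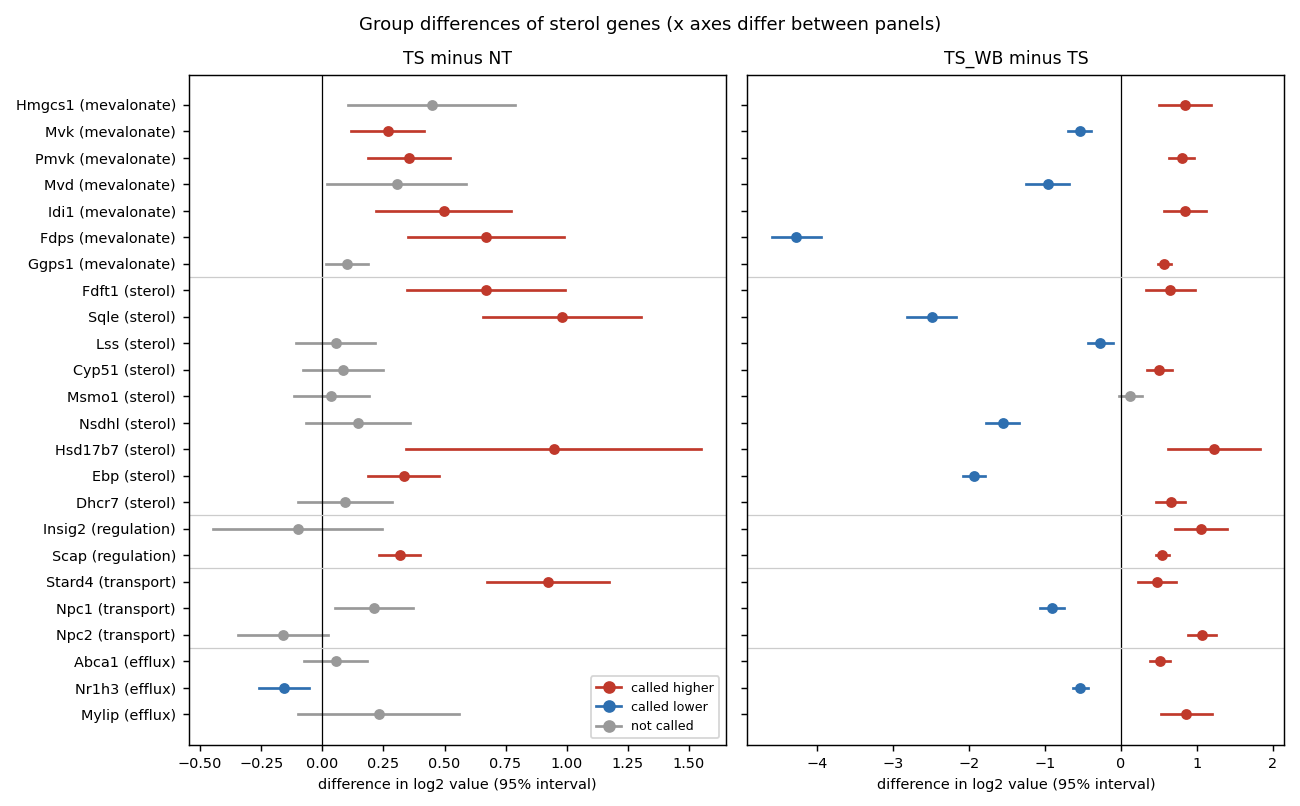
Difference in log2 value with its 95% interval for the 24 varying genes, ordered by role, TS minus NT on the left and TS_WB minus TS on the right; the horizontal axes differ. On the left 10 genes are called higher and Nr1h3 lower, and on the right calls lie on both sides within every role of 3 or more genes, from -4.27 (Fdps) to 1.23 (Hsd17b7).

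Averaged over the 19 synthesis and transport genes, each array's distance from the NT mean ran from -0.11 to 0.12 in NT and from 0.13 to 0.51 in TS (mean 0.37 ± 0.16, SD). The same average over the 3 efflux genes ran from -0.08 to 0.13 in NT and from -0.17 to 0.29 in TS (mean 0.04 ± 0.18). TS arrays thus lay above all NT arrays for the first and on both sides of them for the second. TS arrays also differed among themselves. Replicate 5 had the lowest TS value for 11 of the 16 varying synthesis enzymes, and replicates 1 and 2 had the highest for 5 and 7 of them. In NT, replicate 4 was lowest for 10 of 16 and replicate 6 highest for 10, while replicate 5, the array with hepatocyte markers, was highest for 4. Without NT replicate 5, 9 members were higher in TS and 0 lower.

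Other measures moved between NT and TS as well. Beside the counts below, 19.3% of all varying genes were higher in TS and 21.1% lower. Of 7 keratinocyte markers 5 were higher in TS and 0 lower. Sebocyte markers, from cells rich in lipid synthesis, had 0 of 4 varying genes called, at list means of 11.44 to 11.72 in NT and 11.39 to 12.03 in TS. Of 7 adipocyte markers 4 were lower (10.83 to 11.44 in NT, 9.83 to 10.31 in TS), of 10 macrophage markers 8 were lower and 1 higher (11.22 to 11.80, then 10.68 to 11.14), and of 8 skeletal muscle markers 6 were lower (13.00 to 14.36, then 11.17 to 11.93). The actin 3′ to 5′ difference was 0.66 higher in TS. The part of these shifts in the rise of the synthesis genes was not tested.

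**Figure D3:**
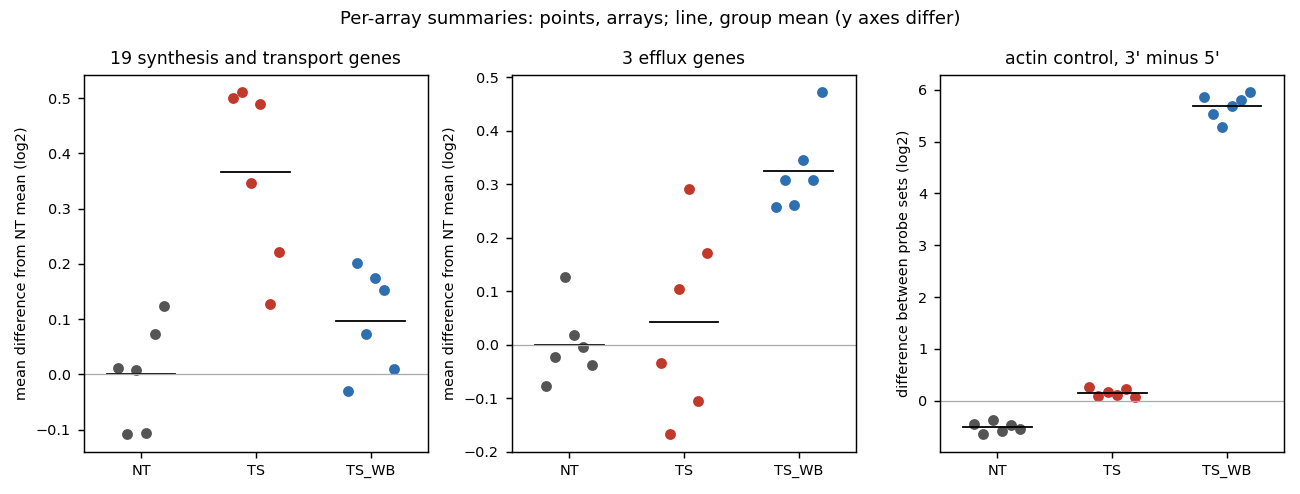
Mean difference from the NT mean over the 19 synthesis and transport genes (left) and the 3 efflux genes (middle), and the actin 3′ minus 5′ control difference (right), in log2, 1 point per array with group means as lines; the vertical axes differ. TS arrays lie at 0.13 to 0.51 on the left, above all NT arrays, and TS_WB arrays stand alone on the right at 5.27 to 5.96.

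Of 76 further genes in 8 lists, 68 were on the array and 38 varied, of which 4 were higher in TS than NT and 8 lower. These are 10.5% and 21.1%, beside 19.3% and 21.1% of all varying genes. The rises included Sult2b1, which makes cholesterol sulfate in the upper epidermis. It was 10.17 ± 0.25 in TS against 8.76 ± 0.11 in NT (difference 1.41, adjusted p = 0.000281), while lysosomal acid lipase Lipa was 0.54 lower (adjusted p = 0.0431). Of 9 varying genes known to be induced by SREBP outside the sterol pathway, 1 was higher and 3 lower. Tmem97, a sterol-responsive membrane protein, was 0.43 higher (adjusted p = 0.0242). The 3 that were lower were Acss2 (cytosolic acetyl-CoA synthetase), Fasn (fatty acid synthase) and Scd1 (stearoyl-CoA desaturase). The other 5 were not called, and their differences ran both ways, from -0.21 for Fads1 and -0.05 for Acly through 0.10 for Elovl6 and 0.32 for Rdh11 to 0.50 for Scd2 (adjusted p = 0.0536).

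Acss2 was 7.96 ± 0.27 in TS against 9.30 ± 0.26 in NT and had fallen by 1.34 (adjusted p = 4.49e-05). Scd1 was 13.08 ± 0.18 against 13.62 ± 0.06 and had fallen by 0.54 (adjusted p = 0.000259), and Fasn had fallen by 1.05 (adjusted p = 0.00131). Of the 7 adipocyte markers 4 were lower too, and their part in these 3 differences was not tested. Mbtps1, the protease that makes the first cut in SREBP, was 0.10 lower (adjusted p = 0.00337), and Mbtps2, which makes the next cut, was not called. In the isoprenoid branches Rabggtb, a subunit of the enzyme that prenylates Rab proteins, was 0.35 higher and Icmt, which methylates prenylated proteins, 0.20 higher, with 2 of 4 varying genes called. Among oxysterol enzymes Hsd3b7 fell by 0.60 (adjusted p = 0.000487) and Cyp7b1 was not called. Among 9 sterol transfer proteins only Scp2 was called, 0.36 lower, and Osbp was not. Of 6 lipoprotein genes and receptors only Pltp, the phospholipid transfer protein, was called, 0.42 lower, and Lrp1 was not (0.41, adjusted p = 0.0888). The liver X receptor partner Rxra and the target Lpcat3 were not called.

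In skin of mice given winged bean extract, the same genes differed from TS in both directions, also between neighbouring steps of the pathway. Of the 24 genes 14 were higher in TS_WB than in TS, 9 were lower and Msmo1 did not pass (difference 0.13, adjusted p = 0.165). Msmo1 passed as higher after quantile normalization (0.34, adjusted p = 0.000219) and after median centring (0.16, adjusted p = 0.0327). These are 58.3% and 37.5%, beside 48.4% and 39.2% of all varying genes, so the shares among the members lay near those of the whole array. The median difference was 0.51 among the members and 0.16 over all varying genes. The groups did not overlap for 20 members, 12 higher and 8 lower, and for 76.0% of all varying genes. The actin 3′ to 5′ difference was 5.53 higher in TS_WB than in TS, and its part in these results was not tested.

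The genes that were lower included the clearest differences. Fdps ranged from 6.33 to 6.79 (median 6.68) in TS_WB, against 10.54 to 11.40 in TS. All TS_WB arrays lay below all others, and the group mean lay under the array median, so the size of the change is uncertain. Fdps fell by 4.27 (SE 0.15, adjusted p = 9.18e-13). Sqle ranged from 7.85 to 8.54 (median 8.32), below every TS array, and fell by 2.49 (SE 0.15, adjusted p = 8.89e-10). Ebp ranged from 8.67 to 8.91 (median 8.74) and fell by 1.93 (SE 0.07, adjusted p = 9.9e-13). Nsdhl ranged from 8.31 to 8.65 (median 8.38) against 9.66 to 10.31 (median 9.98) in TS and fell by 1.55 (SE 0.10, adjusted p = 1.75e-09). For each of these 4 genes the TS_WB arrays were also below all NT arrays.

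The other 5 that were lower had smaller differences. Mvd (mean 7.77 in TS_WB) fell by 0.96, Npc1 (8.27) by 0.90, Mvk (7.93) by 0.54, Nr1h3 (6.88) by 0.53 and Lss (8.70) by 0.27. The Nr1h3 mean lay under the array median, so its size is uncertain, and the Lss groups overlapped.

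The enzymes that were higher stood beside these in the same chain. Hmgcs1 rose by 0.85 to a mean of 12.85, Idi1 by 0.85 to 11.67, Pmvk by 0.80 to 9.60 and Ggps1 by 0.58 to 8.28. In the sterol arm Hsd17b7 rose by 1.23 to 11.27, Dhcr7 by 0.66 to 9.87, Fdft1 by 0.65 to 11.21 and Cyp51 by 0.51 to 10.73. These are the brightest probe sets. Other probe sets of Hsd17b7, Fdft1 and Npc2 were called lower, and 2 of Hmgcs1 were not called, as given below. Insig2 rose by 1.06 to 10.98, Scap by 0.55 to 10.60, Npc2 by 1.07 to 13.04 and Stard4 by 0.48 to 9.87. On the efflux side Abca1 ranged from 11.66 to 11.90 (median 11.79), above every TS array, and rose by 0.51 (SE 0.06, adjusted p = 2.42e-06). Mylip ranged from 10.90 to 11.57 (median 11.16), also above every TS array, and rose by 0.87 (SE 0.16, adjusted p = 0.000199).

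Where a gene had several varying probe sets, these went opposite ways in TS_WB for some genes. Among the 11 genes with several, 4 had probe sets called in opposite directions between TS_WB and TS, and 0 did between TS and NT. The matching share over all genes was not counted, so this is not shown to be particular to these genes. Fdft1 was 0.65 higher by 1 probe set and differed by -2.21 by the other. Hsd17b7 was 1.23 higher by 1 and differed by -1.11 and -1.25 by the others. Npc2 was 1.07 higher by 1 and differed by -2.67 and -0.77 by the others, and Lss differed by -0.27 by 1 and was 1.08 higher by the other. The Npc2 probe set that was higher is the brightest only through the TS_WB arrays, so its count among the 14 higher members rests on that choice. The sign of the TS_WB difference of these 4 genes therefore depends on the probe set. So do the places of Fdft1 and Hsd17b7 among the 14 higher members and of Lss among the lower ones. Another 13 members had a single varying probe set, Fdps, Sqle, Ebp, Nsdhl, Abca1 and Mylip among them, so this check could not be made for them. The probe sets of Hmgcs1, Mvk, Mvd, Idi1, Cyp51, Insig2 and Stard4 gave no opposite calls.

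**Figure D4:**
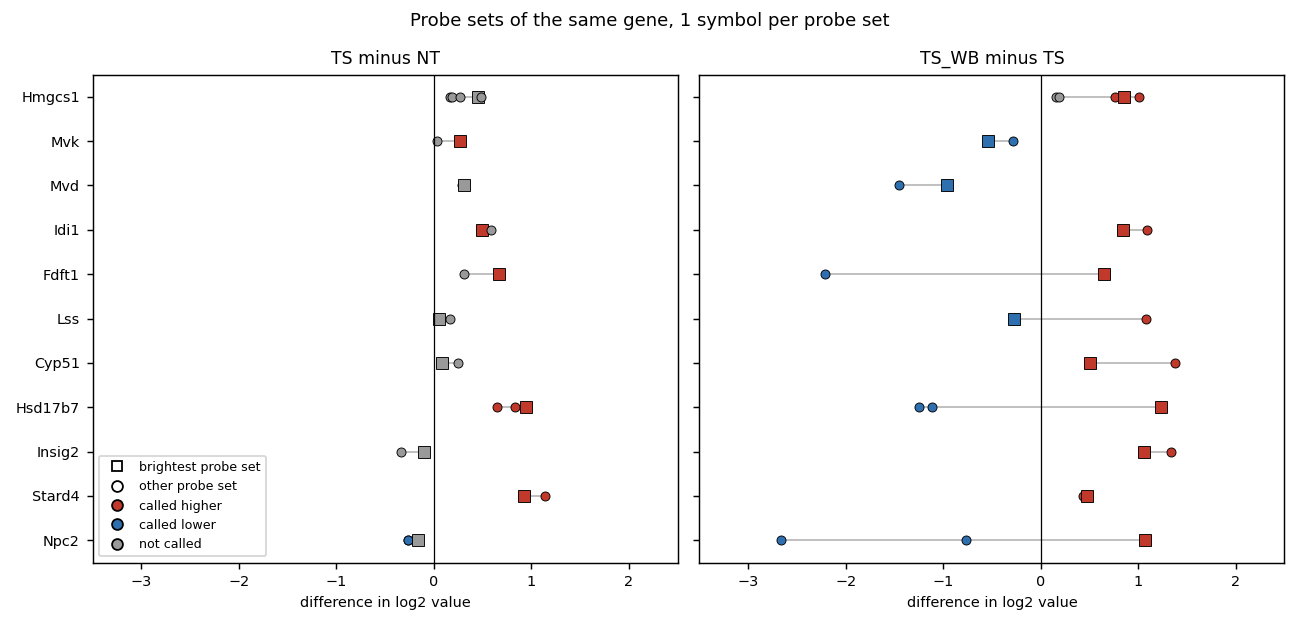
Difference in log2 value of every varying probe set of the 11 genes with more than 1, TS minus NT on the left and TS_WB minus TS on the right, on equal axes; squares mark the brightest probe set and colours the call. On the left no gene has opposite calls, and on the right the probe sets of Fdft1, Lss, Hsd17b7 and Npc2 lie on both sides of 0.

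Of the 38 further genes 17 were higher in TS_WB than TS and 13 lower. These are 44.7% and 34.2%, near the 48.4% and 39.2% of all varying genes. Sult2b1 was 8.30 ± 0.57 in TS_WB and had fallen by 1.87, and Tmem97 was 8.71 in TS and 6.42 in TS_WB. Among sterol transfer proteins 7 of 9 were higher and 2 lower, the 2 with the smallest p-values being Osbpl3, 1.32 lower, and Osbpl5, 1.12 lower. The apolipoprotein gene Apoc1 differed by -4.50 and Lrp1, an apolipoprotein E receptor, by -1.74. Rxra was 0.96 lower, Fads1 (a fatty acid desaturase) 1.10 lower and Hsd3b7 1.27 lower, while Cyp7b1 was 1.26 higher. The SREBP-linked Erlin2 was 0.46 higher and Rnf139 0.64 lower. Of the isoprenoid genes Rabggtb was 1.88 lower and Fnta 1.56 higher. Lipa and Lpcat3 were not called.

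Markers of other cell types differed between TS_WB and TS at the same time. Beside the counts below, 48.4% of all varying genes were higher in TS_WB and 39.2% lower. The sebocyte list had 2 of 4 varying genes lower and 0 higher, with list means of 10.47 to 10.99 on TS_WB arrays. The adipocyte list had 5 of 7 lower and 1 higher (8.05 to 8.53), the macrophage list 7 of 10 lower and 2 higher (9.26 to 9.75) and the muscle list 6 of 8 lower (7.44 to 9.19). Of the keratinocyte markers 3 were lower and 1 higher. What part these shifts or the actin 3′ to 5′ difference had in the member differences was not tested.

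Against NT, 14 members were higher in TS_WB (46.9% of all varying genes were), 9 were lower (41.3%) and Msmo1 did not pass. The difference of Msmo1 was 0.17 (adjusted p = 0.0688) and it passed in 8 alternatives, among them quantile normalization (0.42, adjusted p = 2.36e-05). After quantile normalization 7 members were lower, since Lss (-0.10, adjusted p = 0.178) and Mvk (-0.12, adjusted p = 0.0908) no longer passed. The Lss call was also lost on leaving out NT replicate 5 or 6 or TS_WB replicate 3 or 6 (adjusted p from 0.0528 to 0.0685). TS was the shared group of the first 2 comparisons, so values are given side by side only. Scap had means of 9.73 in NT, 10.05 in TS and 10.60 in TS_WB, with no overlap between any groups, and was 0.86 higher in TS_WB than NT (SE 0.04, adjusted p = 2.35e-11). Its TS_WB arrays ranged from 10.53 to 10.64 (median 10.61). Ggps1 had means of 7.60, 7.71 and 8.28, with a difference of 0.68 from NT (SE 0.04, adjusted p = 5.94e-10). It ranged from 7.50 to 7.71 (median 7.61) in NT and from 8.21 to 8.37 (median 8.28) in TS_WB. Stard4 had 8.47, 9.39 and 9.87, again with no overlap, and differed from NT by 1.40. Fdps had 10.23, 10.90 and 6.62 and Ebp 10.37, 10.70 and 8.78, with differences of -3.60 and -1.59 from NT. The average over the 19 synthesis and transport genes was 0.37 in TS and 0.10 in TS_WB (-0.03 to 0.20). It combines members between -3.60 (Fdps) and 2.18 (Hsd17b7, brightest probe set) from NT. The other 2 probe sets of Hsd17b7 were called lower than NT, at -0.47 and -0.42, and Fdft1, Lss and Npc2 also had probe sets called in opposite directions against NT. The efflux average was 0.33 in TS_WB (0.26 to 0.47), from Abca1 (0.57 above NT), Mylip (1.10 above) and Nr1h3 (0.69 lower).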

How the data were processed

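Total RNA of 18 skin samples, 6 per group, was isolated with Isogen and an RNeasy kit, and 100 ng was labelled, per the labels' protocols. The table the authors deposited holds 1 value per probe set and array. These deposited values (2.93 to 19.04) were read as log2 values. The logarithm's base, the summarising and the normalization are not given in the sources used here, and no scanner file was used. The 64 controls among 45101 probe sets were left out. Of the 45037 tested, 33091 ranged by less than 0.01. Symbols came from the platform annotation (34945 probe sets with 1 symbol, 932 with several, 9160 with none). Groups were compared with limma 3.58.1 (R 4.3.3), 1 fit over all 18 arrays, with Benjamini-Hochberg adjustment over all 45037 probe sets. The number of arrays limits the precision. The script was tested on simulated data.

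The members and gene lists were chosen with earlier results of these data known. Named with full values are the 4 members with the smallest p per comparison and every efflux member, with group values for every member that passed. Of the other lists, the 2 genes with the smallest p are named. The other SREBP-induced genes named in TS against NT lie outside that rule and were named after their values were seen. Replicates are labelled biological, but whether each is 1 mouse is not stated, so p-values measure the spread between these samples. Replicate numbers are shared by the groups, but whether they pair the samples is not stated, and the main fit did not pair them. Alternatives were another normalization, filters, weights, fewer arrays, other probe sets, a replicate block and each array left out.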

Additional observations from a re-analysis of the deposited data

Results flagged for a closer look

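Among the 72 sets of 6 arrays (24 genes in 3 groups), 2 had an array far from the rest by Dixon's criterion (a gap over 0.625 of the range), and chance alone marks about 1 in 20 such sets. Idi1 in TS_WB replicate 6 was lowest at 11.26, with the nearest array at 11.69. Nsdhl in TS_WB replicate 2 was highest at 8.65, with the nearest array at 8.40. Both values kept the side of the group on which the other TS_WB arrays lay.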

How the results depend on the processing

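The 10 members higher in TS than NT became 5 where a 1.5-fold change was required, and lay between 8 and 12 under the other alternatives (9 to 12 with single arrays left out). The 1 member lower, Nr1h3, became 0 under quantile normalization, median centring, a fit of the 12 arrays alone, the replicate block and the 1.5-fold minimum, 2 (with other probe sets of Npc2 in place) with the probe set of largest variance and 2 with the mean of probe sets, and 0 to 1 with single arrays left out. The 14 members higher in TS_WB than TS became 9 at 1.5-fold. Deviations of same-numbered arrays had correlations from -0.13 to 0.13 for TS and NT. They ran from -0.27 to 0.05 for TS_WB and TS and from -0.05 to 0.14 for TS_WB and NT. Among NT arrays, the same-numbered array was the closest match for TS replicates 1 and 2 and for TS_WB replicates 1, 2, 4 and 6. Among TS arrays it was not the closest for any TS_WB replicate. Pairing is not stated, so the replicate block is a hint only. With it 8 members were higher in TS, Mvk (adjusted p = 0.0518) and Hsd17b7 (0.0848) no longer passing, and Lss (0.0510) was no longer lower in TS_WB than NT. Idi1 (0.152) and Fdft1 (0.0613) did not pass with their probe set of largest variance. Hmgcs1 passed under the dim filter (0.0431), with varying probe sets only (0.0321) and with array weights (0.0337), and Npc1 under the same 3 settings (0.0421, 0.0313 and 0.02). Npc1 also passed in the fit on means of probe sets (0.0259). Mvd passed as higher in TS in the fit of the 12 arrays alone (0.0397), and Ggps1 after quantile normalization (0.0475). Insig2 ran from -0.239 to 0.015 with single arrays left out, changing sign without TS replicate 5. Reversals in TS_WB came from the choice of probe set. Against TS, the largest-variance probe set and the mean of probe sets gave -2.21 and -0.78 for Fdft1, 1.08 and 0.41 for Lss and -2.67 and -0.79 for Npc2, and the mean gave -0.38 for Hsd17b7. Against NT they gave -1.90 and -0.29 for Fdft1, 1.25 and 0.52 for Lss and -2.93 and -1.02 for Npc2. Over all alternatives 13 of 24 members kept their direction and side of the threshold for TS against NT, and 19 of 24 for each TS_WB comparison. Signal over background was not measured, which limits genes near or under the array median such as Fdps and Nr1h3 in TS_WB.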
